A study of Mus musculus with 12 samples.

Results

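Lysosomes are the acidic compartments in which macrophages digest what they engulf, and 37 mouse genes of this compartment were followed here: 7 cysteine cathepsins, 4 other lysosomal proteases, 10 glycosidases, 5 genes of lipid handling, 8 lysosomal membrane proteins and 3 transcription factors of the MiT family (Tfeb, Tfe3 and Mitf). A feature of the array belonged to a gene when its RefSeq transcript did. This matched 36 of the 37 genes through 45 features, and all 36 were among the 20862 genes tested. Of the 20862, 13197 had a gene symbol. The others were kept under the array's own transcript name, and each is counted as a gene in the shares of all genes. No feature was matched to Cd68, which is not reported. All 45 features lay well above background on all 12 arrays, so the filter on dim features removed none of them.

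Peritoneal macrophages that had adhered to the dish came from wild-type C57BL/6 mice, 8 weeks old. Cells kept overnight without serum then received vehicle (control), IL4 at 10 ng/ml, or IL4 at 10 ng/ml together with emodin, an anthraquinone found in rhubarb, at 50 µM, with 4 Cy3-labelled arrays in each group. No group received emodin without IL4. The labels give a treatment of 6 h in one field and an overnight treatment in another, and the text of the series names white blood cells and PMN (an abbreviation in common use for neutrophils) where the sample labels name macrophages. The 4 arrays per group are named biological replicates in the series, and nothing says whether an array holds 1 mouse or a pool, so the p-values measure the spread between these arrays, which may be technical in part. All 7 macrophage markers checked, among them Adgre1 and Csf1r, lay above background on all 12 arrays.

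Several facts about the arrays bear on every result. Control and IL4 arrays shared a slide, with each group in its own row, and the emodin arrays filled a row of another slide. Slide and emodin therefore cannot be told apart, nor can slide row and IL4. In every row the replicate number was also the slide column, so pairing of samples and position cannot be told apart. The 75th percentile of intensity differed by -0.67 (log2) between emodin and IL4 arrays and by 0.09 between IL4 and control arrays, while the spike-in RNAs differed by 0.41 and -0.04. Values scaled by the 75th percentile are therefore 1.08 higher for emodin against IL4 than values scaled by the spike-ins, and 0.13 lower for IL4 against control. Marker sums below are relative to each array's 75th percentile, and the brightest markers weigh most. The summed level of the macrophage markers was 9.34 to 9.37 (log2) on control arrays, 9.48 to 9.66 on IL4 arrays and 9.37 to 9.62 on emodin arrays. In that order Fcgr1 averaged 1.63, 1.06 and -1.83, Cd14 5.01, 4.16 and 4.26, and Adgre1 4.83, 5.12 and 5.30. For 6 large peritoneal macrophage markers the sum was 7.97 to 8.07, 7.89 to 8.24 and 7.87 to 8.05. Among them Icam2 averaged 2.88, 2.73 and 1.14, and Prg4 1.14, 1.28 and 2.01. For 5 B cell markers the sum was 0.04 to 1.24, 0.21 to 1.11 and -1.50 to -0.87, with Pax5 below background on all arrays. For 5 T cell markers it was 2.83 to 2.97 on control arrays, 1.74 to 2.26 on IL4 arrays and 2.62 or more on emodin arrays, with Cd3d and Cd3g below background throughout. For 5 neutrophil markers it was 4.69 to 5.29, 4.24 to 4.90 and 5.18 to 5.87, and Elane and S100a8 lay above background on all 12 arrays. Elane averaged 4.31, 3.94 and 5.20 in the same order of groups, and S100a8 3.41, 2.96 and 2.67. The ranges of the groups overlapped for 5 mast cell markers and for 7 mesothelial and fibroblast markers, while 4 eosinophil markers summed to 0.31 to 0.47, -0.74 to -0.08 and -0.25 to -0.14. Of these, Siglecf lay above background on all 12 arrays, Ccr3 on 2 control and 4 IL4 arrays, and Epx and Prg2, which define eosinophils, on none. The part of such cells in the results was not tested. The labels name replicates 1 and 2 of each group as female and 3 and 4 as male, and the arrays did not bear this out. The Y-linked genes Ddx3y, Eif2s3y, Kdm5d and Uty were not well above background on any array labelled male, and Xist, the transcript of the inactive X chromosome, read 722 to 1107 (intensity) on arrays labelled male and 749 to 1372 on arrays labelled female.

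MiT factors are helix-loop-helix proteins that switch on lysosomal and autophagy genes. In fed cells the kinase mTORC1, docked on the lysosome, phosphorylates them and keeps them in the cytosol, and starvation or lysosomal damage sends them to the nucleus, where they bind a short palindrome called an E-box. Macrophages rely on this system to expand their digestive capacity after engulfing particles, and lysosomal breakdown of lipids is among the processes linked to activation by IL4.

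The promoters were searched for that palindrome, and the stretches that hold its longer form are shown to place these genes beside the factors. Windows of 300 bases, 250 before and 50 after each annotated start, came from RefSeq on GRCm38.p6 and covered 33 of the 37 genes (not Asah1, Ctsb, Ctsh and Npc1). The core CACGTG, which reads the same on both strands, occurred in a window of 10 of the 33 genes (30.3%) and of 2187 of 27025 genes in the whole table (8.09%). The form TCACGTGA, which contains the core, occurred in 4 of the 33 (12.1%) and in 304 of 27025 (1.12%). The stretches that follow are those of the 4 genes with the longer form and of Lamp1, which holds 4 cores. They run 5′ to 3′ on the strand of the gene, upstream of the start, with the longer form (for Lamp1, the core) in capitals.
Ctsa, carboxypeptidase that also stabilises other lysosomal enzymes, chr2:164833740-164833772, plus strand: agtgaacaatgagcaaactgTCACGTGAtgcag
Ctsd, aspartic protease, chr7:142387899-142387946, minus strand: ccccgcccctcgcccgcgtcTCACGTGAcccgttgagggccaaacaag
Mcoln1, lysosomal calcium channel, chr8:3500453-3500500, plus strand: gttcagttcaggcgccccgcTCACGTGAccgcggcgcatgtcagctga
Lamp1, abundant membrane glycoprotein, chr8:13159080-13159160, plus strand: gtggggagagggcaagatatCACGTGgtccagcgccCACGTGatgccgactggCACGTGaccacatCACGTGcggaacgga
Gla, alpha-galactosidase A, chrX:134601173-134601253, minus strand: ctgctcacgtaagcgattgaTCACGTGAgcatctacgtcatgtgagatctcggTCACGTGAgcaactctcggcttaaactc
The first capital lies 13 bases before the start in Ctsa, 99 in Ctsd, 46 in Mcoln1, 61 in Lamp1 and 228 in Gla. The other genes with a core were Ctsl, Gaa, Glb1, Lgmn and Naglu, and no core was found in the windows of Tfeb, Tfe3 or Mitf. A match describes these letters only.

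The effect of the cytokine by itself is read from IL4 against control. IL4 raised Psap, Mitf and Npc1, and all 3 calls held under each of 3 ways of scaling the arrays. Psap encodes prosaposin, the precursor of the saposins that help degrade sphingolipids, and rose 1.69-fold. Npc1, the membrane protein that exports cholesterol from lysosomes, rose 1.31-fold, and the factor Mitf rose 1.47-fold. Ctsh, a cathepsin that trims proteins from their amino end, and Lipa, the acid lipase that frees cholesterol from its esters, fell under the main scaling. Values here and below are log2 intensity, scaled by each array's 75th percentile, unless another scale is named. Differences were tested with limma over all 20862 genes, and a gene was called at a Benjamini-Hochberg adjusted p below 0.05.

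Psap read 8.83, 8.96, 8.64 and 8.51 on control arrays 1 to 4, and 9.43, 9.54, 9.46 and 9.53 on IL4 arrays 1 to 4. All IL4 arrays lay above all control arrays, and the difference was 0.75 ± 0.10 (SE, n = 4 per group; limma adjusted p = 0.00035). Mitf read 5.54, 5.41, 5.32 and 5.32 on control arrays and 6.03, 5.94, 5.92 and 5.94 on IL4 arrays, a difference of 0.56 ± 0.09 (limma adjusted p = 0.00071). Its second feature gave 0.61 ± 0.10. The control and IL4 ranges of Mitf were apart. Npc1 read 3.80, 3.55, 3.58 and 3.60 on control arrays and 4.10, 3.99, 3.92 and 4.10 on IL4 arrays (0.39 ± 0.08, limma adjusted p = 0.0061). Here too each IL4 array lay above each control array. Spike-in scaling gave 0.88 for Psap, 0.69 for Mitf and 0.52 for Npc1, and quantile scaling gave 0.79, 0.58 and 0.35.

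The falls were smaller and less stable. Ctsh read 7.77, 8.09, 7.97 and 7.95 on control arrays and 7.56, 7.76, 7.59 and 7.56 on IL4 arrays (-0.33 ± 0.09, limma adjusted p = 0.031). Lipa read 7.39, 7.41, 7.45 and 7.38 on control arrays and 7.15, 7.10, 7.22 and 7.16 on IL4 arrays (-0.25 ± 0.07, limma adjusted p = 0.023). The groups did not overlap for either gene, and both values were negative under all 3 scalings. Spike-in scaling called neither (-0.20 and -0.12, limma adjusted p = 0.372 and 0.625), and quantile scaling did not call Lipa (-0.23, limma adjusted p = 0.085). Leaving out single arrays also ended these calls: without control replicate 2 or 3, or without IL4 replicate 1 or 4, neither gene was called. Ctsh was also lost without control replicate 4 or IL4 replicate 3, and Lipa without IL4 replicate 2, with limma adjusted p up to 0.0898 for Ctsh and 0.0702 for Lipa.

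As a group, these genes were called with IL4 at shares near those of all genes. Of the 36, 3 were called higher and 2 lower, beside 8.98% and 8.56% of all 20862 genes, and their median difference was 0.06 beside -0.03 for all genes. Quantile scaling called 3 higher and 1 lower (8.81% and 9.31% of all genes). Spike-in scaling called 3 higher (8.81%), and its limma fit called 0 lower (3.04% of all genes), with 0 lower at an unadjusted p under 0.05. All genes called in the same direction under the 3 scalings made up 7.84% higher and 3% lower. IL4 arrays lay wholly above control arrays for 9 of the genes and wholly below for 2, beside 12.1% and 12.8% of all genes.

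With the replicate number, which was also the slide column, as a block, 5 genes were called higher and 3 lower. The shares of all genes above are from the model without the block. No share is given for the block, so these counts alone do not set the lysosomal genes apart. The additions were Tfe3 at 0.27 ± 0.06 (limma adjusted p = 0.0125), Ctss at 0.35 ± 0.08 (0.0113) and Ctsk at -0.39 ± 0.10 (0.0184). Without the block their limma adjusted p were 0.0503, 0.242 and 0.428. Ctss is the cathepsin that processes the invariant chain for antigen presentation, and Ctsk is a strong collagenase. Leaving out emodin replicate 3, which enters only the shared estimate of spread, also gave 5 higher, with Tfe3 and Tfeb added (limma adjusted p = 0.0392 and 0.0463). Without control replicate 1 Tfe3 was called at 0.33 (limma adjusted p = 0.022).

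By role, 3 of the 5 lipid genes, 1 of the 7 cysteine cathepsins and 1 of the 3 MiT factors were called with IL4, beside 8.98% of all genes higher and 8.56% lower. None of the 10 glycosidases, 7 measured membrane proteins or 4 other proteases was called by limma, nor did any pass an unadjusted p under 0.05 under the main scaling. The glycosidases ranged from -0.09 to 0.20, the membrane proteins from -0.16 to 0.16 and the other proteases from -0.01 to 0.14. These counts and ranges hold for the brightest feature of each gene, and that of Ctsd (-0.01) lay at 99.1% of the scanner's saturation value. Dimmer features of Ctsd, Ctsa and Idua lay below these ranges, at -0.21 ± 0.09, -0.05 ± 0.08 and -0.23 ± 0.15. Lamp1 read 9.69, 9.50, 9.40 and 9.46 on control arrays and 9.68, 9.72, 9.65 and 9.63 on IL4 arrays (0.16 ± 0.08, limma adjusted p = 0.2). Lamp2, the partner glycoprotein that also serves chaperone-mediated autophagy, read 5.78, 6.14, 6.23 and 5.99, and then 5.86, 6.01, 6.07 and 5.89 (-0.08 ± 0.11, limma adjusted p = 0.67, and 0.05 with spike-in scaling). For both, control and IL4 arrays overlapped. Limma called 0 of the 10 genes with a core in their promoter window, with 0 at an unadjusted p under 0.05 under the main scaling and 2 under spike-in scaling.

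**Figure D1:**
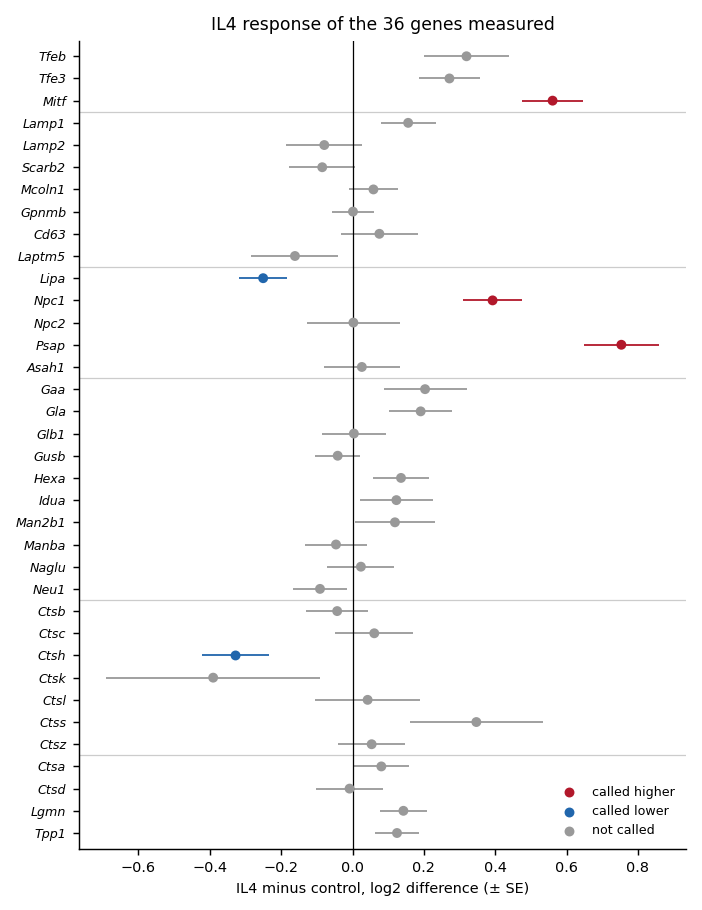
Log2 difference between IL4 and control (x axis, point ± SE, 4 arrays per group, values relative to the 75th percentile) for the 36 genes measured, grouped by role with grey lines. Psap, Npc1 and Mitf were called higher (0.75, 0.39 and 0.56), Ctsh and Lipa lower (-0.33 and -0.25), and the other 31 were not called.

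The 3 MiT factors each had a positive difference with IL4, and the fourth member of the family had the largest. Tfe3 read 5.29, 5.08, 5.06 and 5.07 on control arrays and 5.53, 5.42, 5.32 and 5.32 on IL4 arrays (0.27 ± 0.09, limma adjusted p = 0.0503). Tfeb read 2.14, 2.05, 2.22 and 2.25, and then 2.37, 2.45, 2.45 and 2.67 (0.32 ± 0.12, limma adjusted p = 0.09). For both genes each IL4 array lay above each control array, and neither was called. Tfec, the relative of these factors found mainly in macrophages, read 1.18 ± 0.14 (SD, n = 4) in control and 2.34 ± 0.14 with IL4. It rose by 1.16 ± 0.09 (limma adjusted p = 4e-06), and by 1.16 and 1.28 with quantile and spike-in scaling.

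IL4 plus emodin against IL4 asks what emodin adds to cells given the cytokine. Transcripts of Tfe3 and Mitf fell, and so did Manba and Gusb, enzymes that remove mannose and glucuronic acid from sugar chains. These 4 were called lower under all 3 scalings, as were 26.2% of all genes. The direction of most other lysosomal genes depended on the scale. Relative to the array's 75th percentile 27 were called higher, beside 39.4% of all genes. Relative to the spike-in RNAs 29, with those 4 among them, were called lower, beside 80.4% of all genes. In RNA from whole cultures, fewer cells of a type and less RNA per cell cannot be told apart.

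Tfe3 read 4.27, 4.17, 4.02 and 4.25 on emodin arrays 1 to 4, where the IL4 arrays had read 5.32 to 5.53. The difference was -1.22 ± 0.09 (limma adjusted p = 2.3e-07), to 0.430 of the IL4 level, and its second feature gave -1.18 ± 0.09. Mitf read 5.36, 5.29, 5.04 and 5.13 with emodin (-0.75 ± 0.09, limma adjusted p = 1.1e-05), and -0.47 ± 0.10 by its second feature. Both groups of emodin arrays lay below every IL4 array, and Tfe3 with emodin also lay below every control array. Quantile scaling gave -1.36 for Tfe3 and -0.97 for Mitf, and spike-in scaling -2.30 and -1.83. Tfeb read 2.53, 2.18, 1.98 and 2.43 and overlapped the IL4 arrays (-0.20 ± 0.12, limma adjusted p = 0.15). It was called with spike-in scaling (-1.28, limma adjusted p = 1.8e-05) and, on the main scale, without emodin replicate 1 (-0.29, limma adjusted p = 0.048).

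Tfec fell furthest in the family, from 2.34 ± 0.14 with IL4 to 0.44 ± 0.04 (SD, n = 4) with emodin. The difference was -1.90 ± 0.09 (limma adjusted p = 1.1e-08), and -1.88 and -2.98 under quantile and spike-in scaling. All 4 emodin arrays also lay below the control arrays, with a difference from control of -0.74 ± 0.09 (limma adjusted p = 2.1e-05).

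**Figure D2:**
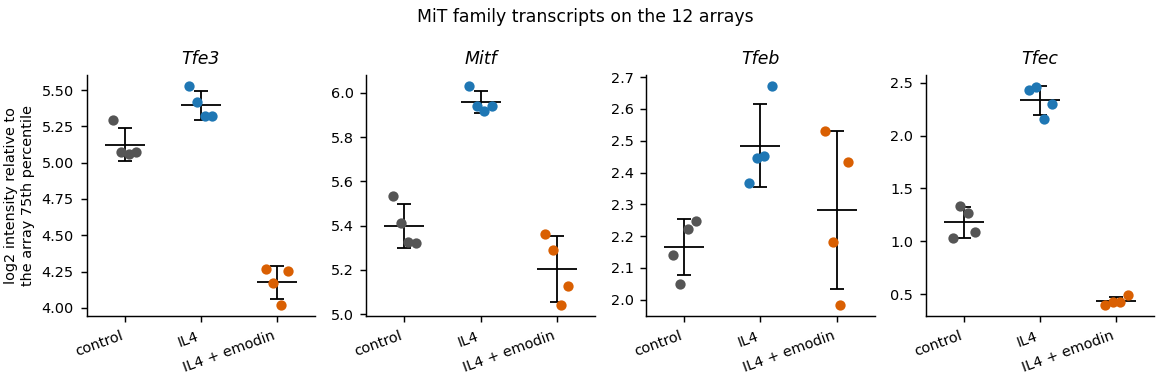
Values of the 4 MiT family transcripts on each array (points; y axis, log2 intensity relative to each array's 75th percentile, with its own range in each panel), with the mean and SD of the 4 arrays per group in black. Emodin arrays lie below IL4 arrays for Tfe3, Mitf and Tfec and overlap them for Tfeb.

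Manba read 3.47, 3.38, 3.47 and 3.62 on IL4 arrays and 2.73, 2.92, 2.95 and 3.11 on emodin arrays (-0.56 ± 0.09, limma adjusted p = 0.00014). Gusb, averaged over 10 spots per array and singled out after its values were seen, read 7.53, 7.58, 7.56 and 7.56, and then 7.12, 7.15, 7.14 and 7.28 (-0.39 ± 0.06, limma adjusted p = 0.0002). Before any scaling, the intensity of Gusb was 144435 to 150628 on IL4 arrays and 63093 to 74736 on emodin arrays. For both enzymes the emodin arrays lay below all others, those of the control group included. Spike-in scaling gave -1.64 and -1.47, and quantile scaling -0.58 and -0.86.

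Read from the brightest feature of each gene, Idua, Npc2 and Ctsh had the largest rises relative to the 75th percentile. Dimmer features of Gaa, Ctsa and Ctsd gave 1.10, 1.02 and 0.92 on that scale, above Npc2 and Ctsh. Idua, which removes iduronic acid from heparan and dermatan sulphate, read 4.01, 3.86, 3.80 and 3.99 on IL4 arrays and 4.94, 5.12, 4.76 and 5.06 on emodin arrays. The difference was 1.05 ± 0.10 (limma adjusted p = 3e-06), 0.93 with quantile scaling and -0.03 with spike-in scaling (limma adjusted p = 0.884). Its 2 features disagreed in size, since the dimmer one gave 0.33 ± 0.15 under the main scaling and -0.34 unscaled, where the brighter one gave 0.38. Npc2, the soluble cholesterol carrier that hands its load to Npc1, read 7.87, 8.07, 8.04 and 7.87, and then 8.55, 9.21, 8.80 and 8.74 (0.86 ± 0.13, limma adjusted p = 0.00011). Ctsh read 8.27, 8.60, 8.51 and 8.48 with emodin (0.85 ± 0.09, limma adjusted p = 9e-06). On this scale the emodin arrays of all 3 lay above the IL4 arrays. Quantile scaling also called Npc2 (0.22) and Ctsh (0.26) higher, and spike-in scaling gave -0.22 and -0.23, called in neither.

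The membrane proteins show how far the scale decides the direction. Before scaling, the intensity of Lamp1 was 665946, 640118, 615861 and 607824 on IL4 arrays and 644534, 729155, 623083 and 624679 on emodin arrays, and the groups overlapped. This feature lay at 61.1% to 99.1% of the scanner's saturation value. Relative to the 75th percentile these same spots read 9.68, 9.72, 9.65 and 9.63, and then 10.31, 10.46, 10.44 and 10.35 (0.72 ± 0.08, limma adjusted p = 6.4e-06). The difference was -0.01 with quantile scaling (limma adjusted p = 0.944) and -0.36 with spike-in scaling (limma adjusted p = 0.0239). Lamp2 read 6.34, 6.61, 6.55 and 6.60 with emodin (0.57 ± 0.11, limma adjusted p = 0.00054), 0.26 with quantile scaling and -0.51 with spike-in scaling, both called. Its second feature gave 0.36 ± 0.08. Laptm5, a membrane protein of blood cell lysosomes, and the channel Mcoln1 were called higher with percentile scaling (0.82 and 0.69) and quantile scaling (0.50 and 0.34), and their spike-in values were -0.26 (not called) and -0.39 (called).

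**Figure D3:**
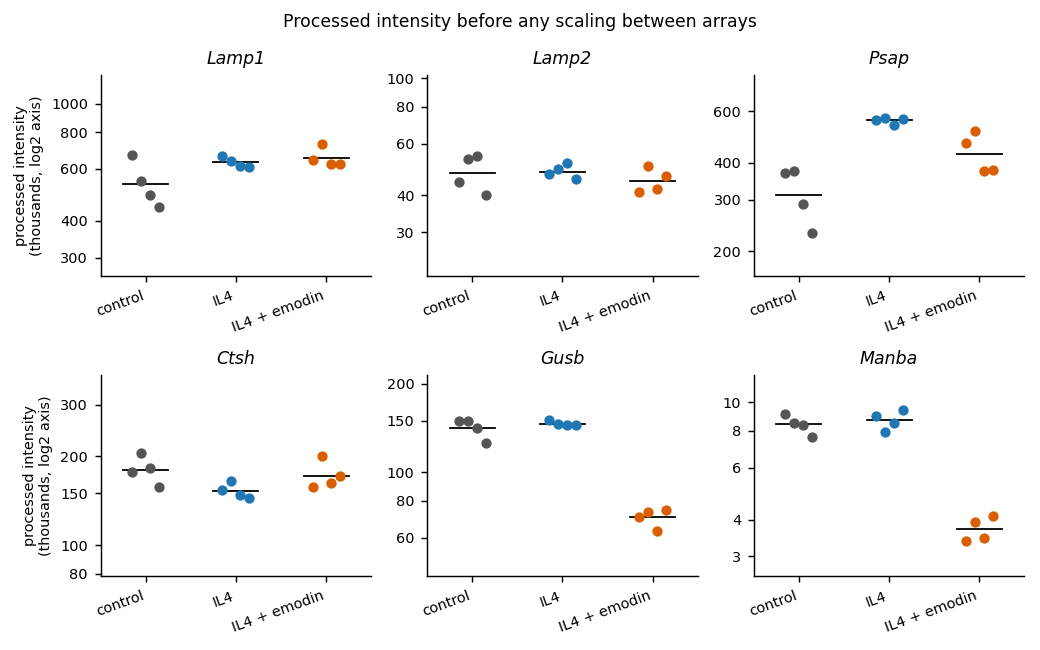
Processed intensity before any scaling between arrays (y axis, log2 scale with its own range in each panel; points are single arrays, lines geometric means of 4). Gusb and Manba lie apart on emodin arrays, Psap is highest on IL4 arrays, and the emodin arrays of Lamp1, Lamp2 and Ctsh overlap the IL4 arrays.

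Over the 36 genes, percentile scaling called 27 higher and 4 lower with emodin, beside 39.4% and 26.5% of all genes. Quantile scaling called 7 higher and 7 lower (29.4% and 30.9% of all genes). Spike-in scaling called 29 lower (80.4%) and limma called 0 higher there (3.51%), with 0 higher at an unadjusted p under 0.05. The medians were 0.45, -0.04 and -0.63, beside 0.17, 0.02 and -0.91 for all genes. Across the 3 scalings, 4 genes were called lower each time (26.2% of all genes) and none higher (3.51% of all genes). The emodin arrays lay wholly above the IL4 arrays for 27 genes and wholly below for 4 on the percentile scale, beside 35.9% and 24.4% of all genes. Read from the brightest feature, only Idua, Npc2, Ctsh, Laptm5, Mcoln1, Lamp2 and Tpp1 were called higher under both percentile and quantile scaling. Tpp1, a tripeptidyl peptidase, gave 0.33 and 0.18 there, and -0.75 under spike-in scaling. Under quantile scaling, dimmer features of Ctsa, Gaa, Asah1 and Ctsd gave 0.99, 1.12, 0.50 and 0.26, and those of Idua and Lamp2 0.28 and 0.09. Lgmn, Gla and Psap were called in opposite directions by percentile and quantile scaling, at 0.42, 0.36 and 0.29 against -0.31, -0.25 and -0.42. Psap read 9.84, 9.95, 9.72 and 9.63 on emodin arrays, and its call under the main scaling (limma adjusted p = 0.0265) was lost without IL4 replicate 1 or 3 or without emodin replicate 1 or 2.

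**Figure D4:**
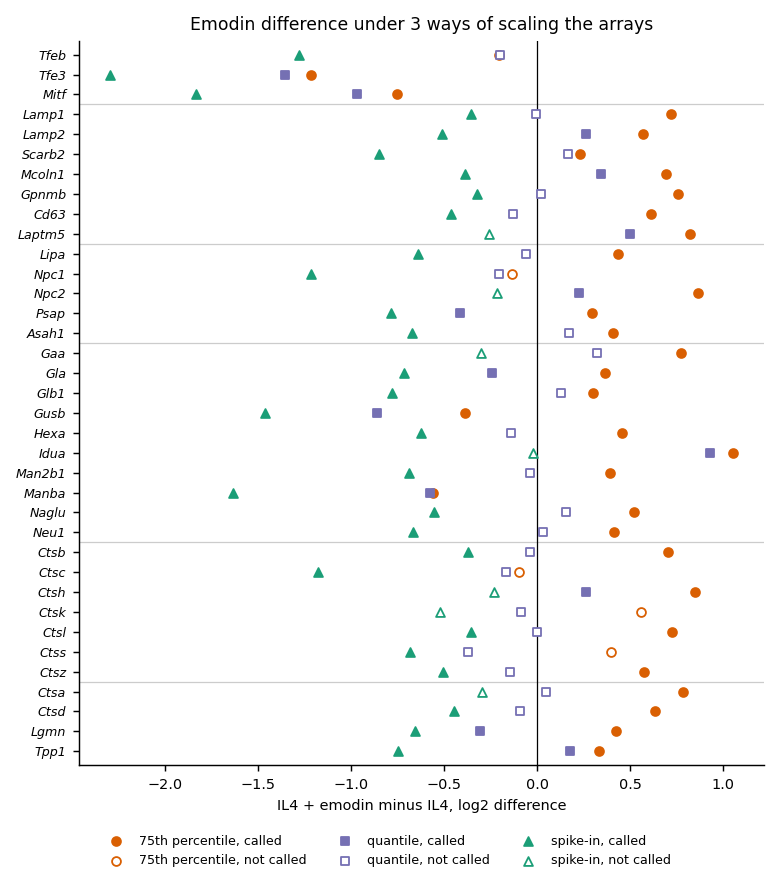
Log2 difference between IL4 plus emodin and IL4 (x axis) for the 36 genes, with each gene shown under 75th percentile (circles), quantile (squares) and spike-in scaling (triangles), filled where limma called it. Tfe3, Mitf, Manba and Gusb are filled on the left for all 3, and most others change side with the scale.

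Under percentile and spike-in scaling, brightness went with the difference across all genes, and these genes are bright. Under percentile scaling the 332 genes with a mean log2 intensity above 18 had a median emodin difference of 0.74, and the 11 lysosomal genes among them 0.63. In the step from 16 to 18 the medians were 0.62 over 930 genes and 0.46 over 9 lysosomal genes, and from 10 to 12 the median over 3783 genes was -0.04. The dimmest step, with no lysosomal gene, lay at 0.23. Spike-in scaling shifts every step by the same amount, and all 7 medians were then below 0. With quantile scaling the median of all genes was 0.02 above 18 and 0.07 from 16 to 18. The lysosomal genes in these steps lay at -0.09 and -0.06. The features of Cd63, Ctsa, Ctsb, Ctsd, Ctsl, Gpnmb and Lamp1 lay above 50% of the scanner's saturation value on all arrays, and none was marked saturated. That of Ctsd lay at 99.1% on every array, at a ceiling, so its bright feature measures no fold, and those of Ctsa, Gpnmb and Lamp1 reached 99.1% on their highest array. With each gene read from its brightest feature under 50% of saturation, which only Ctsa and Ctsd of these 7 had, the numbers of lysosomal genes called under the main scaling were the same in all 3 comparisons. The part of saturation for the other 5 was not tested. The dimmer features of Ctsa and Ctsd gave 1.02 ± 0.08 and 0.92 ± 0.09, and the bright one of Ctsa gave 0.78 ± 0.08. This choice of feature was not run with quantile scaling. There the dimmer features gave 0.99 and 0.26, and the bright one of Ctsa gave 0.05.

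**Figure D5:**
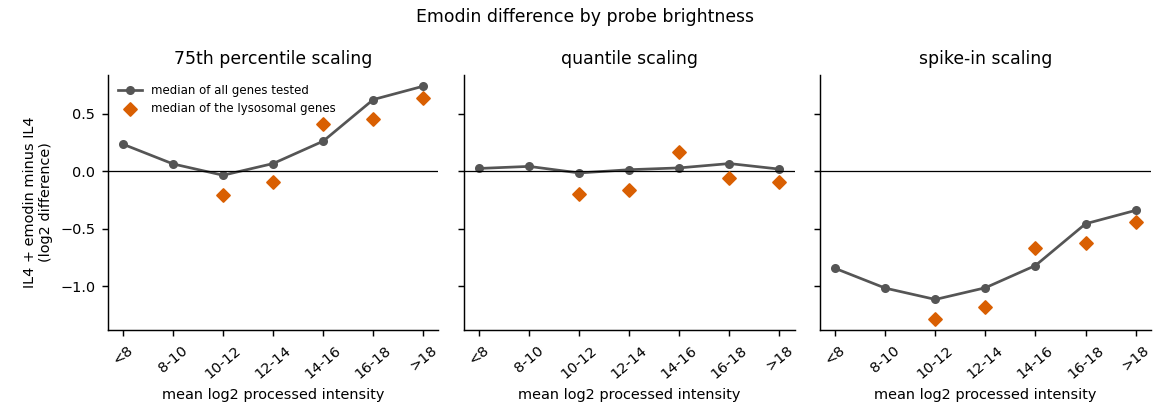
Median log2 difference between IL4 plus emodin and IL4 (y axis) in steps of mean log2 processed intensity (x axis), under 3 scalings, for all genes tested (circles) and for the lysosomal genes in the step (diamonds). Under percentile scaling the median of all genes is 0.74 in the brightest step, and the lysosomal genes there lie at 0.63, while under spike-in scaling every step lies below 0.

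By role, relative to the 75th percentile, all 7 measured membrane proteins, all 4 other proteases, 8 of 10 glycosidases, 4 of 5 lipid genes and 4 of 7 cysteine cathepsins were called higher with emodin, beside 39.4% of all genes. None of these was called higher with spike-in scaling, where 3.51% of all genes were. The exceptions were Manba and Gusb, called lower, and Ctsk, Ctss, Ctsc and Npc1, which were not called. With the replicate block Ctsk (0.56, limma adjusted p = 0.00076) and Ctss (0.39, 0.0015) were called higher too. Ctsc, the dipeptidyl peptidase that activates serine proteases, and Npc1 were the only genes outside the MiT family with a negative value that missed the threshold (-0.10 and -0.14), and spike-in scaling called both lower (-1.18 and -1.22). The 10 genes with a core in their promoter window were all called higher under percentile scaling (0.30 to 0.78, median 0.66). Of the 22 measured genes with a window and no core, 14 were called higher and 4 lower (median 0.40). Ctsa, Ctsd, Ctsl and Lamp1, among the 10, were read from the bright features listed above for saturation, that of Ctsd at a ceiling. Under quantile scaling 1 of the 10 was called higher and 2 lower, beside 29.4% and 30.9% of all genes. Under spike-in scaling 8 were called lower, beside 80.4% of all genes. Among the 22, quantile scaling called 5 higher and 5 lower, and spike-in scaling 18 lower. Whether the core bears on these differences was not tested.

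IL4 plus emodin against control shares its arrays with both comparisons above. Manba, Gusb and Tfe3 lay below control under all 3 scalings. Tfe3 differed by -0.95 ± 0.09 (limma adjusted p = 1.9e-06), Manba by -0.61 ± 0.09 (7.8e-05) and Gusb by -0.43 ± 0.06 (9.9e-05). Mitf, raised by IL4, lay near control with emodin (-0.19 ± 0.09, limma adjusted p = 0.067), and quantile and spike-in scaling called it lower (-0.39 and -1.14). Its second feature gave 0.14 ± 0.10, 0.06 and -0.81 on the 3 scales, so the features differ in sign on the first and second of them. Tfeb was not called (0.12 ± 0.12, limma adjusted p = 0.41) except with spike-in scaling, at -0.84. Psap lay above control by 1.05 ± 0.10 (limma adjusted p = 4.1e-06), 0.38 with quantile scaling and 0.10 with spike-in scaling, where it was not called. Percentile scaling called 28 genes higher and 3 lower (37.3% and 25.6% of all genes), quantile scaling 7 and 5 (26.8% and 30.2%), and spike-in scaling 23 lower (75.1%). Limma called 0 higher there (4.18%), with 0 higher at an unadjusted p under 0.05. The share of all genes called the same way by all 3 scalings was 4.18% higher and 25.4% lower. Emodin arrays lay wholly above control arrays for 25 genes and wholly below for 3, beside 32% and 22.2% of all genes.

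The arrays labelled male and female were also compared for their responses, although the labels were not borne out. Limma called 0 of 20862 genes (0%) for the IL4 difference and 0 for the emodin difference, with 272 and 506 genes at an unadjusted p under 0.05 and none of the 36 lysosomal genes among them in either case.

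Other genes of the lysosome were called with IL4 in each list but one, and the counts below stand beside 8.98% of all genes higher and 8.56% lower. Of 25 other membrane proteins and transporters, 8 were called higher with IL4 and 3 lower (median 0.05). The largest fall was the two-pore channel Tpcn1 (-0.68 ± 0.14, limma adjusted p = 0.0061, and -0.55 and not called with spike-in scaling). Of 18 V-ATPase subunits, which pump protons into the lysosome, 4 were called higher under each of the 3 scalings (median -0.02 under the main one), led by Atp6v0a1 at 1.25 ± 0.16 (limma adjusted p = 0.00015). Of 34 other hydrolases and activators, 4 were higher and 2 lower (median 0.02). Pla2g15, the lysosomal phospholipase, rose by 1.05 ± 0.09 (limma adjusted p = 6.5e-06), and Hyal2, a hyaluronidase, fell by 0.66 ± 0.10 (limma adjusted p = 0.00071).

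Regulators and inhibitors moved in single genes. Of 24 mTORC1, Rag and folliculin genes, 3 were called higher with IL4 and 1 lower (median -0.0013), with Ppp3r1, the regulatory subunit of calcineurin, at 0.72 ± 0.08 and the folliculin partner Fnip2 at -0.69 ± 0.13 (-0.56 and not called with spike-in scaling). Of 15 autophagy genes, 1 was higher and 1 lower (median 0.04): Gabarapl1, which tags autophagosome membranes, at 0.31 ± 0.08, and the late endosome GTPase Rab7 at -0.34 ± 0.09 (-0.21 and not called with spike-in scaling). Limma called 0 of the 10 genes of mannose 6-phosphate sorting with IL4, with 1 at an unadjusted p under 0.05 (median -0.00032). Of 4 cystatins, Cst7, which inhibits cathepsins inside the cell, lay above background on 4 of 4 IL4 arrays and on 1 of 4 arrays in each of the other groups. It read -1.19 to -0.95 with IL4, and as most other arrays were at background no fold is given, although the fit called it higher. No other cystatin was called (list median 0.08).

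With emodin, Atp6v0a1 and Ppp3r1, which IL4 had raised, were called lower under all 3 scalings. Against IL4, Atp6v0a1 differed by -1.50 ± 0.16 and Ppp3r1 by -0.71 ± 0.08. Both comparisons share the IL4 arrays. Pla2g15 and Gabarapl1 were called higher relative to the 75th percentile (0.57 ± 0.09 and 0.54 ± 0.08) and lower with spike-in scaling (-0.51 and -0.54). The largest falls of the lists were the amino acid sensor Slc38a9 (-1.36 ± 0.11), the lipid amidase Naaa (-0.96 ± 0.08), the tethering factor Vps18 (-0.99 ± 0.10), the mTORC1 scaffold Lamtor4 (-0.92 ± 0.15) and the sorting receptor Igf2r (-0.39 ± 0.15), all called under the 3 scalings.

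The largest rises relative to the 75th percentile were also called under quantile scaling, and of these only Optn was called higher under spike-in scaling. Optn, an autophagy receptor, was called higher under all 3 scalings (1.45 ± 0.07, and 1.46 and 0.37). Hyal1 (1.31 ± 0.09), Laptm4b (1.04 ± 0.11), Atp6v1c1 (1.37 ± 0.11) and Flcn (0.85 ± 0.09) were called higher with percentile and quantile scaling, and spike-in scaling called none of them (0.23, -0.04, 0.29 and -0.23). M6pr, the second sorting receptor, was called higher at 0.75 ± 0.09 and lower with spike-in scaling at -0.33. By list under percentile scaling, 21 of 34 hydrolases were higher and 5 lower (median 0.31), 10 and 7 of 25 membrane proteins (0.05), 14 and 3 of 18 V-ATPase subunits (0.51), 6 and 7 of 24 mTORC1 and folliculin genes (0.11), 5 and 2 of 10 sorting genes (0.23), 9 and 2 of 15 autophagy genes (0.41), and 1 of 4 cystatins lower (0.01), which was Cst7, above background on 1 of 4 emodin arrays. With spike-in scaling these lists held 29, 23, 14, 23, 10, 12 and 4 genes called lower, and Optn was the one gene called higher. The shares of all genes were 39.4% higher and 26.5% lower with percentile scaling, and 3.51% higher and 80.4% lower with spike-in scaling. Against control, the largest rises and falls of the lists were Pla2g15 (1.62 ± 0.09) and Naaa (-0.72 ± 0.08), Cd164 (1.28 ± 0.09) and Tpcn1 (-1.60 ± 0.14), Atp6v1c1 (1.22 ± 0.11) and Atp6v0a2 (-0.80 ± 0.13), Flcn (0.85 ± 0.09) and Lamtor4 (-1.22 ± 0.15), M6pr (0.74 ± 0.09) and Igf2r (-0.37 ± 0.15), and Optn (1.54 ± 0.07) and Vps18 (-0.75 ± 0.10). Of the rises, spike-in scaling called Pla2g15, Cd164 and Optn higher, and it called all of those falls.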

How the data were processed

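Arrays were 1-colour Agilent arrays read with Feature Extraction 10.7.3.1, per the file headers, and the authors deposited processed signal as intensity, background-subtracted by that software. The authors' deposited values are on a log2 scale, match a recomputation by quantile normalization centred on each probe's median, and served as an alternative. For the main setting each array's 75th percentile was subtracted on the log2 scale, with quantile and spike-in scaling (6 spike-in probes) beside them. Of 55681 probes, 27509 had 1 symbol through RefSeq accessions and 28172 had none. A probe was kept when some group had it well above background on its 4 arrays, and the brightest probe stood for a gene. One limma 3.58.1 model (R 4.3.3) gave the group means over 12 arrays, with Benjamini-Hochberg adjustment over 20862 genes. The code was tested on simulated data. The number of arrays limits the precision.

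Same-numbered IL4 and control arrays deviated together (r = 0.311 to 0.524, all 4 pairs over 0.1), and they also shared a slide column. Whether the numbers pair samples or only positions on the slide cannot be told apart. For emodin against IL4 3 of 4 pairs passed 0.1. Members and lists were chosen with earlier results of these data known. Values on all arrays are given for the MiT factors, Lamp1, Lamp2 and the 3 largest called rises and falls with IL4 and with emodin. Each other list names its largest called rise and fall, except where an item is not reported here. Gusb, Laptm5, Mcoln1, Tpp1, Lgmn, Gla, Ctss, Ctsk and Ctsc fall outside that rule and were named after their values were seen. Alternatives were other scalings and background corrections, the replicate block, a plain per-gene test and leaving out arrays. No scaling between arrays, and the brightest probe under 50% of saturation, were added after seeing the data. The headers' grid uses mm9, and promoter coordinates are RefSeq's on GRCm38.p6.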

Additional observations from a re-analysis of the deposited data

Results flagged for a closer look

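In 9 of 108 sets of 4 arrays, 1 array stood apart from the other 3, with a gap that took more than 0.829 of the range of the set. Chance gives about 1 in 20. On control arrays these were Glb1 (gap 0.919 of the range, replicate 3 at 5.16 above the next at 4.87), Neu1 (0.855, replicate 3 at 6.31 below 6.44), Mcoln1 (0.940, replicate 2 at 5.94 below 6.03) and Tfe3 (0.921, replicate 1 at 5.29 above 5.08). On IL4 arrays they were Ctsd (0.876, replicate 1 at 9.82 below 9.91), Naglu (0.958, replicate 4 at 5.92 below 6.32) and Scarb2 (0.861, replicate 1 at 3.56 below 3.68). The Ctsd feature lay at a ceiling on every array. The 75th percentile subtracted from it was 9.67 (log2) on IL4 replicate 1, beside 9.57, 9.58 and 9.58 on IL4 replicates 2 to 4. On emodin arrays they were Ctss (0.842, replicate 4 at 9.51 below 10.18) and Gaa (0.875, replicate 3 at 7.28 below 7.55).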

How the results depend on the processing

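The scale decided most emodin results. Lysosomal genes called higher with emodin against IL4 numbered 27, and 7 with quantile scaling, 0 with spike-in scaling, 10 when centred on the members' median, 5 with normexp then quantile, 7 in the deposited table and 1 with no scaling. Those called lower numbered 4, and 7, 29, 7, 7, 7 and 12 in that order. Against control, 28 higher became 7, 0, 13, 6, 6 and 3, and 3 lower became 5 (quantile), 23 (spike-in), 5 (centred), 5 (deposited) and 11 (no scaling). With IL4, 3 higher became 5 when centred, with normexp then the 75th percentile, with the replicate block and with a plain per-gene test, and 6 with normexp then quantile. The 2 lower became 1 with quantile scaling, both normexp settings and the deposited table, and 0 with spike-in scaling, centring or no scaling. For percentile, quantile and spike-in scaling the shares of all genes stand with the results above. No such share is given for the other settings, so their counts alone do not set these genes apart from all genes. The cause was not tested. Leaving out arrays gave 3 to 5 higher and 0 to 2 lower with IL4, 25 to 28 and 4 to 5 for emodin against IL4, 27 to 28 and 3 to 4 against control, and 0 for the differences by labelled sex.

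The replicate block added Ctsk (0.56, limma adjusted p = 0.00076) and Ctss (0.39, 0.0015) for emodin against IL4 and Mitf (-0.19, 0.018) against control, and the additions with IL4 stand with those results.

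Of 1102 alternative values of named genes, 985 kept direction and call, 38 reversed, 40 lost the call and 39 gained it. With IL4, Lamp2 turned to 0.049 (spike-in), 0.087 and 0.055 (normexp with 75th percentile and quantile) and 0.014 (no scaling). For emodin against IL4, spike-in scaling turned Idua (-0.025), Npc2 (-0.22), Ctsh (-0.23), Laptm5 (-0.26), Mcoln1 (-0.39), Lamp1 (-0.36), Lamp2 (-0.51), Tpp1 (-0.75), Psap (-0.78), Lgmn (-0.66) and Gla (-0.72). Quantile scaling and the deposited table each turned Lamp1 (-0.0071), Psap (-0.42), Lgmn (-0.31) and Gla (-0.25). Centring turned Tpp1 (-0.051), Psap (-0.086) and Gla (-0.017), and normexp then quantile turned Psap (-0.51), Lgmn (-0.28) and Gla (-0.26). With no scaling, Lamp2 (-0.10), Tpp1 (-0.34), Psap (-0.38), Lgmn (-0.25) and Gla (-0.31) turned. Against control, Tfeb turned to -0.84 (spike-in), -0.21 (centred) and -0.46 (no scaling), and Mcoln1 to -0.20 (spike-in). Saturation limits the brightest probes.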
